A study of Mus musculus with 6 samples.

Results

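The transmembrane mucins of the glycocalyx are described here through 5 genes, Muc1, Muc3, Muc4, Muc13 and Muc20, chosen by their gene names among the 54012 genes of the deposited table. All 5 were listed, and 3 of them (Muc3, Muc4 and Muc13) reached the mean of 1 TPM that 13458 genes reached and that was required for a test. TPM is a transcript abundance corrected for transcript length and expressed as a share of a total that is equal for all libraries. The data are RNA sequencing profiles of total RNA from mouse small intestine, 3 libraries labelled TLR4ΔIEC and 3 libraries labelled wild type (WT), from mice aged 8 to 12 weeks. The question, from the series title, is what loss of intestinal TLR4, which senses bacterial lipopolysaccharide, does to gene expression. TLR4ΔIEC is the usual notation for a deletion of Tlr4 in intestinal epithelial cells, and the labels name neither the promoter of a Cre transgene, nor the strain, nor the stretch of small intestine taken. The same age range and collection date are given for all 6 libraries.

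Transmembrane mucins are long glycoproteins anchored in the apical membrane of epithelial cells. Their extracellular repeats, rich in serine and threonine, carry dense O-linked sugars and form the glycocalyx on enterocyte microvilli, beneath the secreted mucus made by goblet cells. Their short cytoplasmic tails can bind scaffold proteins or signalling proteins, and in Muc1 and Muc13 an SEA domain, a fold at which many of these proteins are cleaved yet held together, sits next to the membrane. The Pfam annotation gives no domain for Muc3, which does not show that Muc3 lacks this one.

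Tlr4, the gene that the genotype label names, was at 1.29, 1.22 and 4.81 TPM in libraries labelled TLR4ΔIEC and at 0.65, 0.57 and 0.70 TPM in libraries labelled WT. It was therefore not lower under the label of the deletion (log2 fold change 0.92 ± 0.40 SE, limma adjusted p = 0.243), and groups are called by their labels for this reason. Per gene, values in whole tissue do not show which cells hold a transcript, and TPM would not show whether a part of the gene was removed. In bulk tissue, fewer cells of a type and less RNA per cell cannot be told apart. TLR4ΔIEC replicate 2 stood apart from the other libraries, with 12221 genes at 1 TPM or more against 13197 to 13634 elsewhere, and with the ribosomal RNA gene Rn18s at 12836 TPM against 3806 to 7032 TPM. The 45 alpha-defensin genes, antimicrobial peptides of Paneth cells, took 5.21% to 18.4% of all TPM in libraries labelled TLR4ΔIEC and 25.3% to 28.7% in those labelled WT. Because TPM are shares of a fixed total, that difference bears on the level of each other gene.

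The windows upstream of the 2 abundant members, Muc3 and Muc13, are shown because these genes carry the differences described below. They are from the RefSeq promoter table on GRCm38.p6, in which all 5 members were matched, with 6 windows of 250 bases before and 50 bases after a gene start, since Muc13 has 2 starts. Each is printed 5′ to 3′ on the strand of the gene, up to the first base that GENCODE M21 annotates as an exon on that strand. Capitals mark AGGTCA, the half-site of many nuclear receptors, and GGTCAAAGG, which extends it, on either strand.
Muc3, chr5:137166071-137166296, minus strand: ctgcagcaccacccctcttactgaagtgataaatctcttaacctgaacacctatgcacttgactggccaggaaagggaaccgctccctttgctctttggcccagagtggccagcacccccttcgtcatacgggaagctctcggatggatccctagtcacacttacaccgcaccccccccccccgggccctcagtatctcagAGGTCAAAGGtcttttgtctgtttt
Muc13, upstream start, chr16:33793787-33794036, plus strand: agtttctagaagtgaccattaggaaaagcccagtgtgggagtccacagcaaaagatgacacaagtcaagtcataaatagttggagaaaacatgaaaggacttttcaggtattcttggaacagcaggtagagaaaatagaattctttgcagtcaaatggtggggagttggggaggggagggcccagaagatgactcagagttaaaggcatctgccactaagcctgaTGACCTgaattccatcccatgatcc
Muc13, downstream start, chr16:33794239-33794366, plus strand: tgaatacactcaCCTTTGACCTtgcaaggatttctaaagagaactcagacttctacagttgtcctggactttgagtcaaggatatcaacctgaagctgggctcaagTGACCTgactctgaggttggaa

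GGTCAAAGG stands at bases 203 to 211 of the Muc3 window, on the strand of the gene, and at bases 13 to 21 of the window of the downstream Muc13 start, on the opposite strand. It was found on either strand in 113 of the 32851 promoter windows of the table (0.344%) and in 0.318% of the 12597 windows of tested genes. It overlaps AGGTCA, which 16.3% of all windows hold, and CAAAG, which 53.9% hold. The windows of Muc1, Muc4 and Muc20 hold neither GGTCAAAGG nor AGGTCA. GGTCAAAGG was picked after the sequences had been read, and a match is a run of letters, not a site shown to be bound. The Muc3 window lies outside the span that GENCODE M21 gives the gene.

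**Figure D1:**
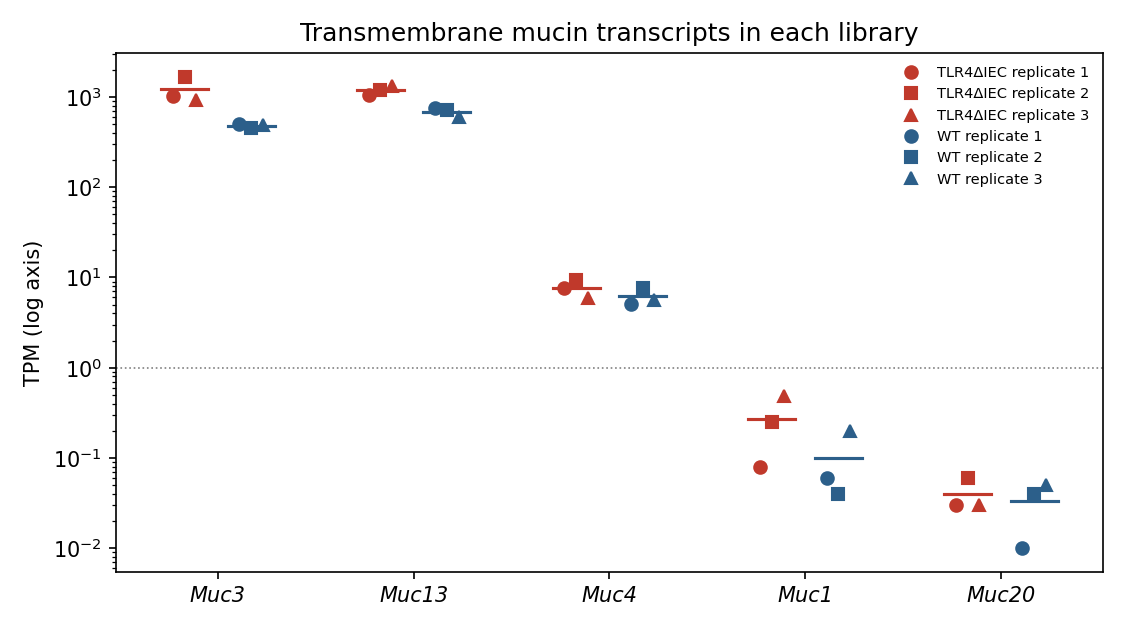
TPM on a log axis for each member in each library, with libraries labelled TLR4ΔIEC left of those labelled WT; bars are group means (n = 3 each) and the dotted line is the 1 TPM needed for a test. Muc3 and Muc13 lie between 448 and 1675 TPM with no overlap between groups, Muc4 lies between 5.13 and 9.46 TPM with overlap, and Muc1 and Muc20 lie below 1 TPM in all 6 libraries.

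Muc3 and Muc13 made up nearly all of the summed TPM of the 5 members and were higher in each library labelled TLR4ΔIEC than in any labelled WT, but neither passed the threshold across all genes (adjusted p of 0.05). Muc4 was far less abundant, at 9.46 TPM or less, with groups that overlapped. Muc1 and Muc20 were below 1 TPM in all 6 libraries. None of the 3 tested members was called, where 16 of the 13458 tested genes were (0.119%). At an unadjusted p under 0.05, 2 of the 3 were higher in libraries labelled TLR4ΔIEC and none lower, where 18.4% of all tested genes were higher and 2.77% lower. Likewise 2 of the 3 had all libraries labelled TLR4ΔIEC above all labelled WT, and none the opposite, where 24.1% of tested genes were higher and 3.53% lower in this way. The median log2 fold change was 0.79 over the 3 tested members and 0.16 over all tested genes.

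Muc3 encodes a large membrane mucin of enterocyte microvilli and is regarded as the mouse counterpart of human MUC17. The gene lies on chromosome 5 (137134922 to 137149322, minus strand, GRCm38). It was at 1022, 1675 and 932 TPM in libraries labelled TLR4ΔIEC, against 505, 448 and 488 TPM in libraries labelled WT. The libraries labelled WT lay close together, those labelled TLR4ΔIEC were spread, with replicate 2 far above the other two, and the groups did not overlap. Group means came to 1209.9 ± 406 TPM for the label TLR4ΔIEC and 480.2 ± 29.4 TPM for WT (SD, n = 3 each), a ratio of 2.52. The log2 fold change was 1.28 ± 0.25 (SE, 95% interval 0.70 to 1.86, limma adjusted p = 0.0935). Without TLR4ΔIEC replicate 2 it was 1.02 (adjusted p = 0.131). By TPM, Muc3 ranked 133rd, 86th and 165th of all genes in libraries labelled TLR4ΔIEC and 248th, 288th and 243rd in those labelled WT.

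Muc13 encodes a smaller transmembrane mucin of the apical surface along the gut, with the SEA domain that Pfam annotates. It lies on chromosome 16 (33794037 to 33819934, plus strand, GRCm38). It was at 1055, 1178 and 1324 TPM in libraries labelled TLR4ΔIEC, against 749.6, 706 and 596 TPM in those labelled WT. The lowest library labelled TLR4ΔIEC stood well above the highest labelled WT, and replicate 3, not replicate 2, was the highest. On average there were 1185.7 ± 135 TPM in libraries labelled TLR4ΔIEC and 683.9 ± 79.1 TPM in those labelled WT (SD, n = 3 each), a ratio of 1.73. The log2 fold change was 0.79 ± 0.18 (SE, 95% interval 0.37 to 1.22, limma adjusted p = 0.101).

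Muc4, a very large membrane mucin with NIDO and von Willebrand factor D domains per the Pfam annotation and a known partner of the receptor ErbB2, lies on chromosome 16 (32735886 to 32782391, plus strand, GRCm38). It was at 7.72, 9.46 and 5.95 TPM in libraries labelled TLR4ΔIEC and at 5.13, 7.71 and 5.69 TPM in those labelled WT. The ranges overlapped over most of their width. The log2 fold change of 0.28 ± 0.22 (SE, 95% interval -0.24 to 0.79, limma adjusted p = 0.514) leaves room for a difference of either sign. The table's identifier for Muc4 differs from the one in GENCODE M21, so that the coordinates were matched by symbol.

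Muc1, a mucin of many glandular epithelia whose tail takes part in signalling, lies on chromosome 3 (89229057 to 89233381, plus strand, GRCm38). It was at 0.08, 0.25 and 0.49 TPM in libraries labelled TLR4ΔIEC and at 0.06, 0.04 and 0.20 TPM in those labelled WT, with overlap. Muc20, known in human cells as a binding partner of the receptor MET, lies on chromosome 16 (32777419 to 32797435, minus strand, GRCm38). It was at 0.03, 0.06 and 0.03 TPM in libraries labelled TLR4ΔIEC and at 0.01, 0.04 and 0.05 TPM in those labelled WT. Neither gene is a basis for a comparison at these levels: fitted without the filter, over 26866 genes, Muc1 had a log2 fold change of 0.20 (95% interval -0.11 to 0.51, limma adjusted p = 0.603) and Muc20 of 0.01 (95% interval -0.06 to 0.08, limma adjusted p = 0.914). The exons of Muc4 and Muc20 share 627 positions on opposite strands, 5.33% of those of Muc4 and 15.57% of those of Muc20. The use of strand in read counting is not stated in any label, so that reads there could be counted for either gene.

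Exact two-sided permutation tests of TPM gave p = 0.1 for Muc3 and Muc13, the smallest value that 3 against 3 libraries allow, p = 0.2 for Muc4 and Muc1 and p = 0.9 for Muc20. Adjusted over these 5 tests, the first 4 became 0.25.

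By level, per transcript length, Muc13 and Muc3 came first, then Muc4, then Muc1 and Muc20. In the libraries labelled TLR4ΔIEC the order of the first pair changed between libraries: Muc3 was above Muc13 in replicate 2 alone, with Muc3 to Muc13 ratios of 0.968, 1.42 and 0.704. In the libraries labelled WT Muc13 was above Muc3 in each, with ratios of 0.674, 0.634 and 0.818. The ratios of the 2 groups overlapped (exact two-sided permutation p = 0.2, adjusted over 7 ratios 0.35), so that a shift in the balance of the pair was not shown. The summed level of the 5 members was 2085, 2863 and 2263 TPM in libraries labelled TLR4ΔIEC and 1260, 1162 and 1090 TPM in those labelled WT. This was 0.208% to 0.286% of all TPM in libraries labelled TLR4ΔIEC and 0.109% to 0.126% in those labelled WT. Muc4 made up 0.263% to 0.370% of that sum in libraries labelled TLR4ΔIEC and 0.407% to 0.664% in those labelled WT.

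The size of the differences depended on what the mucins were set against. The geometric mean of 9 pan-epithelial genes, among them Epcam, Cdh1 and keratins, was 663.7, 813 and 629 TPM in libraries labelled TLR4ΔIEC and 506, 450.1 and 449 TPM in those labelled WT. It thus was also higher in each library labelled TLR4ΔIEC. Relative to it, Muc3 was at 1.54, 2.06 and 1.48 in libraries labelled TLR4ΔIEC and at 0.999, 0.995 and 1.09 in those labelled WT, still without overlap (exact two-sided permutation p = 0.1, adjusted over 7 ratios 0.35). Muc13 relative to the same mean was at 1.59, 1.45 and 2.11 in libraries labelled TLR4ΔIEC and at 1.48, 1.57 and 1.33 in those labelled WT, and these ranges overlapped (p = 0.4, exact, adjusted 0.467). For Muc13, then, the separation between groups seen in TPM was not there once epithelial transcripts were the yardstick. Muc4, in thousandths of the mean, was at 11.6, 11.6 and 9.46 in libraries labelled TLR4ΔIEC and at 10.1, 17.1 and 12.7 in those labelled WT (p = 0.4, exact, adjusted 0.467).

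**Figure D2:**
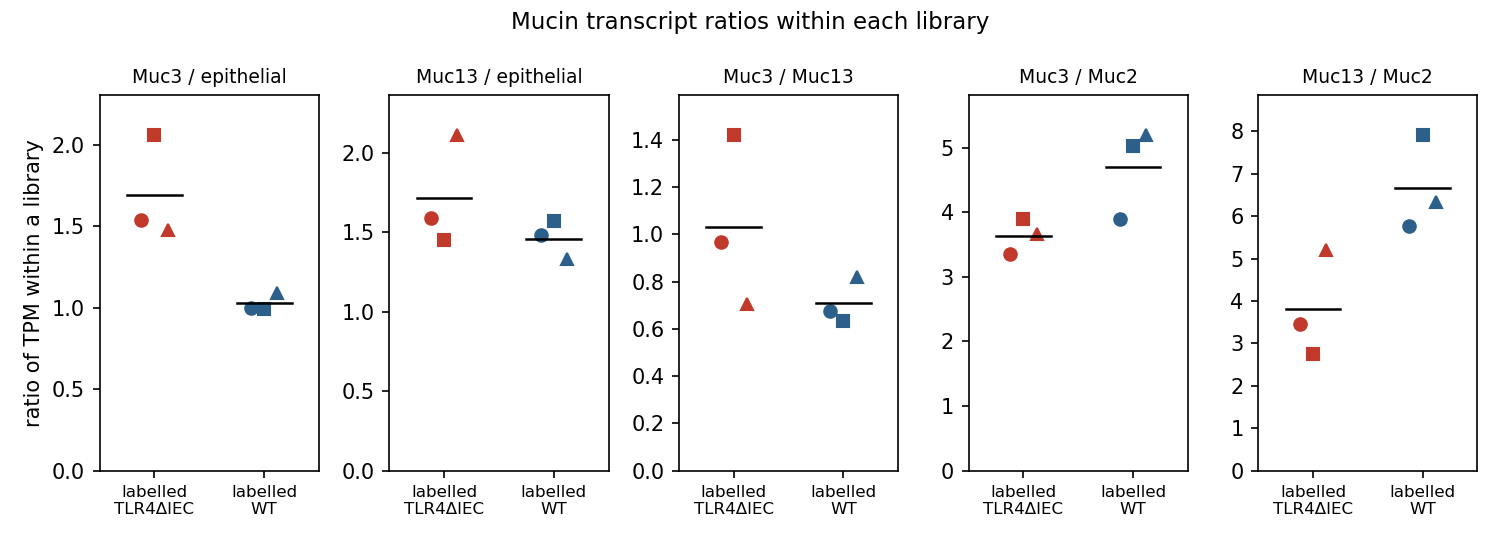
Ratios of TPM within each library, starting at 0, for Muc3 and Muc13 over the geometric mean of 9 pan-epithelial genes, Muc3 over Muc13, and each over Muc2; points are libraries, labelled TLR4ΔIEC left of labelled WT, and bars are means (n = 3 each). Groups do not overlap for Muc3 over epithelial genes and for Muc13 over Muc2, and overlap in the other 3 ratios.

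In the fit across genes, scaling the TPM to the pan-epithelial mean gave Muc3 a log2 fold change of 0.71 (95% interval 0.26 to 1.15, limma adjusted p = 0.208) and Muc13 one of 0.22 (95% interval -0.25 to 0.69, limma adjusted p = 0.487). Muc4 was at -0.23 under it (95% interval -0.78 to 0.32). That scaling moved the median of all genes to -0.34, against 0.16 with TPM as deposited. Rescaling without alpha-defensin, mitochondrially encoded and 18S-like genes gave 0.96 for Muc3, 0.47 for Muc13 and -0.01 for Muc4, beside an all-gene median of -0.13. Under both scalings Muc3 and Muc13 stayed above the median of all genes, and Muc4 stayed slightly above it.

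**Figure D3:**
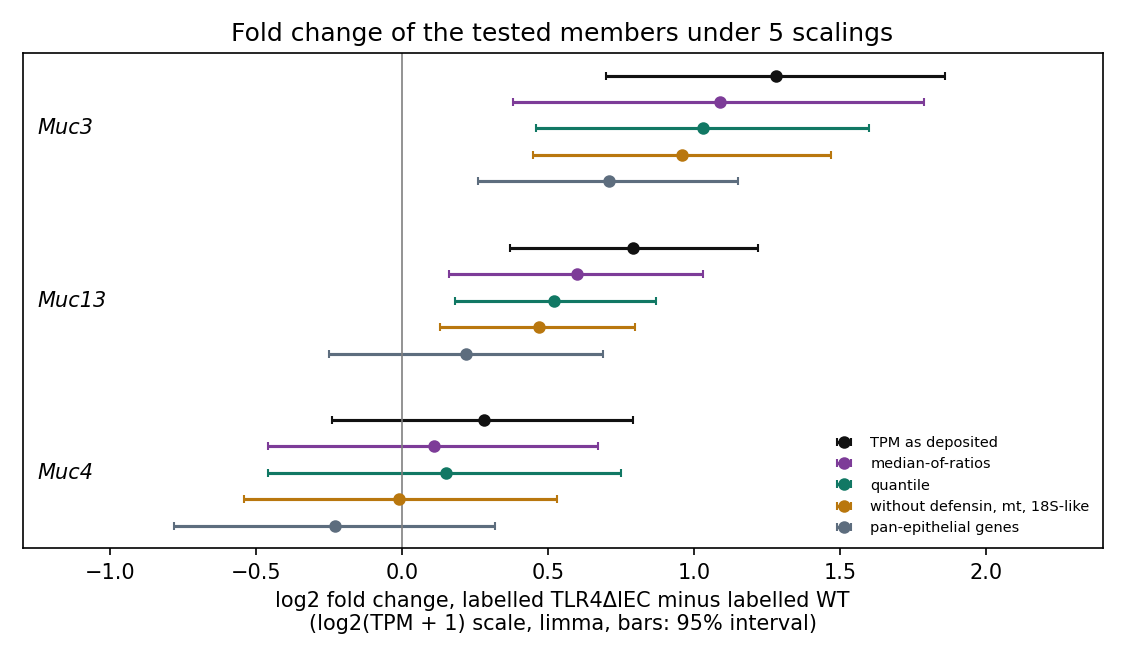
Log2 fold change (labelled TLR4ΔIEC minus labelled WT, log2(TPM + 1) scale) of Muc3, Muc13 and Muc4 under 5 scalings, with 95% intervals from limma. The intervals of Muc3 stay above 0 in each of the 5, that of Muc13 includes 0 with pan-epithelial scaling (0.22, -0.25 to 0.69), and those of Muc4 include 0 in each.

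A list of other membrane-bound genes, not all of them mucins, was set beside the members (13 listed, 10 in the table, 7 tested). Of the 7, only Muc3a has a mucin gene name. Over all tested genes, 18.4% were higher and 2.77% lower at an unadjusted p under 0.05. None of the 7 was called, 4 were higher at that p and none lower, and the median log2 fold change was 0.97. The 4 were Cdhr5 and Cdhr2, protocadherins that link the tips of microvilli, Cd164, a sialomucin, and Muc3a. Cdhr5 averaged 1169.5 ± 341 TPM in libraries labelled TLR4ΔIEC and 563 ± 113 TPM in those labelled WT (log2 fold change 1.03, limma adjusted p = 0.111). Cd164 averaged 149 ± 20.8 TPM in libraries labelled TLR4ΔIEC and 75.1 ± 7.98 TPM in those labelled WT (0.97, limma adjusted p = 0.0828). Mcam, Podxl and Emcn, which mark vessels and stroma more than enterocytes, had log2 fold changes of -0.46, -0.62 and -0.43 with overlapping groups. Muc15 and Muc21 were listed at 0 in all 6 libraries and Muc16 did not exceed 0.02 TPM.

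Muc3a, a gene near Muc3 on chromosome 5 (137208813 to 137212389, minus strand, GRCm38), was at 56.6, 49.9 and 37.6 TPM in libraries labelled TLR4ΔIEC and at 20.3, 18.3 and 27.9 TPM in those labelled WT. Its groups too did not overlap, and its log2 fold change of 1.09 (limma adjusted p = 0.094) was near that of Muc3. The Muc3 to Muc3a ratio was 18.0, 33.6 and 24.8 in libraries labelled TLR4ΔIEC and 24.9, 24.5 and 17.5 in those labelled WT (exact two-sided permutation p = 0.5). The transcripts that GENCODE M21 gives for the pair share no stretch of 31 bases. Its Muc3 model has 1943 exon bases against the 14091 bases of the deposited table, however, so that reads shared between the pair over the longer model could not be looked for and the split between them is uncertain.

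Muc2, the gel-forming mucin that goblet cells secrete, was at 305, 429 and 255 TPM in libraries labelled TLR4ΔIEC and at 129.9, 89.2 and 94.1 TPM in those labelled WT (log2 fold change 1.63 ± 0.24 SE, limma adjusted p = 0.08). Muc3, Muc13 and the secreted Muc2 thus lay on the same side in these libraries, none of them past the threshold with all libraries at equal weight. Muc2 passed it without TLR4ΔIEC replicate 1 (1.67, limma adjusted p = 0.0435) and with array weights (limma adjusted p = 0.0406). Muc3 to Muc2 was 3.35, 3.90 and 3.66 in libraries labelled TLR4ΔIEC and 3.89, 5.02 and 5.19 in those labelled WT (exact two-sided permutation p = 0.2, adjusted 0.35). Muc13 to Muc2 was 3.46, 2.74 and 5.20 in libraries labelled TLR4ΔIEC and 5.77, 7.91 and 6.34 in those labelled WT, without overlap (p = 0.1, exact, adjusted 0.35). Other gel-forming mucins, Muc5ac and Muc5b, were at 0.01 TPM or less in each library.

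Mucins carry O-linked sugars added in the Golgi apparatus. Of 38 listed glycosylation genes, 34 were tested and none was called. Not all of the 38 act mainly on mucins, B4galnt1, Fut8 and B3gnt5 being exceptions, and the counts and median include them where tested. At an unadjusted p under 0.05, 14 were higher and 2 lower in libraries labelled TLR4ΔIEC (all tested genes: 18.4% and 2.77%). The median log2 fold change was 0.32. Galnt1, which adds the first sugar, was at 72.7, 65.0 and 70.9 TPM in libraries labelled TLR4ΔIEC and at 45.3, 46.0 and 53.9 TPM in those labelled WT (log2 fold change 0.52, limma adjusted p = 0.113). Galnt2, of the same family, was at 9.83, 10.3 and 6.21 TPM in libraries labelled TLR4ΔIEC, below each of the 14.0, 15.9 and 10.6 TPM in those labelled WT (-0.58, limma adjusted p = 0.216). B3gnt7, which extends chains, was at 17.0, 25.6 and 30.6 TPM in libraries labelled TLR4ΔIEC and at 7.64, 12.2 and 11.2 TPM in those labelled WT (1.15, limma adjusted p = 0.101). The most abundant by mean TPM were the sialyltransferase St3gal4 (0.28, limma adjusted p = 0.492), B4galnt2 (0.59, limma adjusted p = 0.14) and B4galnt1 (0.01, limma adjusted p = 0.989). Galnt1, Galnt2 and B3gnt7 were chosen after their values were seen.

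Among 24 partners of the glycocalyx and the apical scaffold, none was called, and the median log2 fold change was 0.39. Of the 24, 10 were higher and 2 lower at an unadjusted p under 0.05 (all tested genes: 18.4% and 2.77%). The lattice-forming lectin Lgals4 averaged 2879 ± 367 TPM in libraries labelled TLR4ΔIEC and 2276 ± 180 TPM in those labelled WT (0.33, limma adjusted p = 0.387), while the related Lgals2 was at -0.05 (limma adjusted p = 0.93). Pdzk1, a PDZ scaffold that binds the tail of human MUC17, was at 138, 206 and 274 TPM in libraries labelled TLR4ΔIEC and at 133, 99.0 and 110.1 TPM in those labelled WT (0.80, limma adjusted p = 0.16). The exchanger Slc9a3, which PDZ scaffolds also hold, was at 11.9, 4.50 and 8.74 TPM in libraries labelled TLR4ΔIEC, against 17.6, 18.9 and 16.3 TPM in those labelled WT (-1.07, limma adjusted p = 0.127). Among other PDZ scaffolds of the list, Slc9a3r1 was at 0.36 (limma adjusted p = 0.404) and Slc9a3r2 at -0.87 (limma adjusted p = 0.197). Pdzk1, Slc9a3 and Slc9a3r2 were likewise chosen after their values were seen.

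Receptors and signalling proteins coupled to these mucins (14 listed, 11 tested) gave no call and had a median of 0.44. Of the 11, 8 were higher and none lower at an unadjusted p under 0.05 (all tested genes: 18.4% and 2.77%). Erbb3, an ErbB family receptor, was at 74.9, 118 and 116 TPM in libraries labelled TLR4ΔIEC and at 77.9, 41.7 and 43.2 TPM in those labelled WT, with overlap (0.94, limma adjusted p = 0.148). Erbb2, the partner of Muc4, overlapped as well (0.55, limma adjusted p = 0.192), and Met had a log2 fold change of 0.04 (limma adjusted p = 0.914). Ctnnb1, which encodes beta-catenin, was at 0.43 (limma adjusted p = 0.175) and Jup at 0.44 (limma adjusted p = 0.2).

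Of 13 proteases that shed or cut membrane mucins or related surface proteins, none was called, and the median was 0.30. There were 5 higher and 2 lower at an unadjusted p under 0.05 (all tested genes: 18.4% and 2.77%). Mep1a and Mep1b encode the subunits of meprin, a protease of the brush border. Mep1a was at 412, 664 and 732 TPM in libraries labelled TLR4ΔIEC and at 289, 171 and 246 TPM in those labelled WT (1.34 ± 0.29 SE, limma adjusted p = 0.0955). Mep1b averaged 716 ± 110 TPM in libraries labelled TLR4ΔIEC and 495 ± 33.7 TPM in those labelled WT (0.52, limma adjusted p = 0.16). Mmp7, a Paneth cell protease that activates alpha-defensins, was at 352, 90.5 and 72.6 TPM in libraries labelled TLR4ΔIEC and at 333, 385 and 413 TPM in those labelled WT (-1.50, limma adjusted p = 0.187). Replicate 1 alone of the libraries labelled TLR4ΔIEC lay at the level of those labelled WT, and without it Mmp7 stood at a log2 fold change of -2.20 (SE 0.17, limma adjusted p = 0.00935).

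Among 26 regulators of mucin genes, Gata4 alone was called, where 0.119% of all tested genes were. Gata4, the transcription factor of the jejunal and duodenal programme, fell to 0.23, 1.28 and 2.20 TPM in libraries labelled TLR4ΔIEC, against 17.3, 31.4 and 17.0 TPM in those labelled WT (log2 fold change -3.41 ± 0.39 SE, limma adjusted p = 0.0494). The call was lost, with adjusted p-values of 0.0521 to 0.202, when any library other than TLR4ΔIEC replicate 1 was left out, and also with a pseudocount of 0.1 TPM, without the filter, at a mean of at least 5 TPM, without the intensity trend and with a replicate block. At an unadjusted p under 0.05, 6 regulators were higher and 1, Gata4, was lower (all tested genes: 18.4% and 2.77%). The list's median was 0.32. Elf3, an epithelial ETS factor, averaged 325 ± 94.3 TPM in libraries labelled TLR4ΔIEC and 173 ± 15.8 TPM in those labelled WT (0.87, limma adjusted p = 0.112). Hnf4a, a nuclear receptor of enterocytes, was at 306 ± 29.3 TPM in libraries labelled TLR4ΔIEC and 247 ± 17.2 TPM in those labelled WT (0.31, limma adjusted p = 0.276).

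Cytokines and their receptors linked to mucin induction (20 listed, 13 tested) gave no call and had a median of 0.43. Of the 13, 7 were higher and none lower at an unadjusted p under 0.05 (all tested genes: 18.4% and 2.77%). Among the cytokines, Ifng, Il22, Il4, Il13, Il6 and Tnf stayed below 1 TPM in each library. Il1b was at 2.97, 0.29 and 1.51 TPM in libraries labelled TLR4ΔIEC and at 1.53, 1.40 and 2.02 TPM in those labelled WT, with overlap (-0.17, limma adjusted p = 0.85). Among receptors, Ifngr1 was at 115, 126 and 133 TPM in libraries labelled TLR4ΔIEC and at 81.4, 61.2 and 61.8 TPM in those labelled WT (0.87, limma adjusted p = 0.0913). Ifngr2 (0.74, limma adjusted p = 0.1) and Tnfrsf1a (0.34, limma adjusted p = 0.214) lay on the same side.

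With scaling to the pan-epithelial mean, the medians of the pathway lists took the other sign: -0.24 for O-glycosylation, -0.18 for the scaffold, -0.13 for the signalling proteins, -0.21 for the proteases, -0.23 for the regulators and -0.13 for the cytokine list. That of the members was at 0.22, which is the value of Muc13, with Muc4 at -0.23. That of the other membrane-bound genes was at 0.40 and that of the ileum markers at 0.53. The median of all tested genes was -0.34 under the same scaling, so that each of these lists lay above it.

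**Figure D4:**
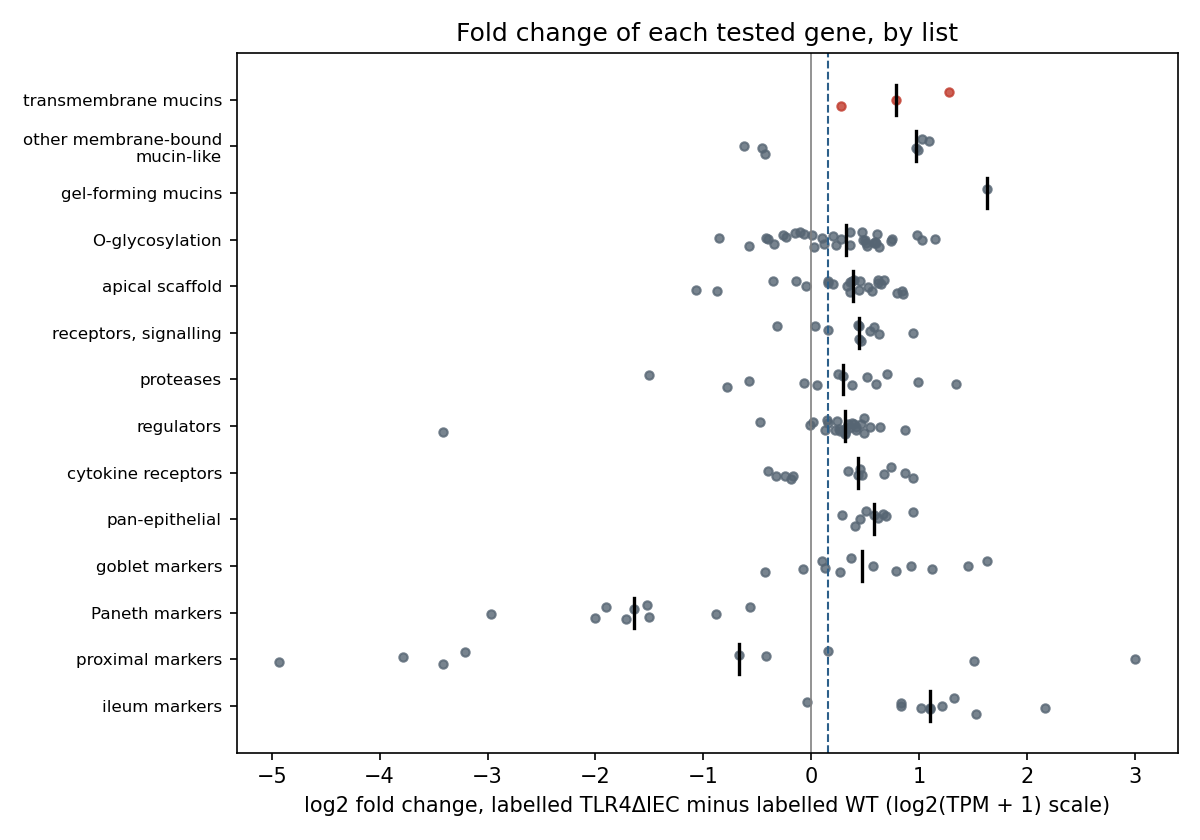
Log2 fold change (labelled TLR4ΔIEC minus labelled WT, log2(TPM + 1) scale) of each tested gene, grouped by list, with black bars for list medians and a dashed line for the median of all tested genes (0.16). The 3 members, in red, lie at 0.28, 0.79 and 1.28, to the right of the dashed line, as do most ileum markers, while all Paneth markers lie left of 0.

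Markers of cell types and gut regions differed between the same groups. For comparison, 18.4% of all tested genes were higher and 2.77% lower at an unadjusted p under 0.05. The summed level of 12 goblet markers, Muc2 among them, was 18400 to 27250 TPM in libraries labelled TLR4ΔIEC and 12290 to 13650 TPM in those labelled WT, and 6 of the 12 were higher and none lower at an unadjusted p under 0.05. Their median log2 fold change was 0.47, and -0.08 with pan-epithelial scaling. The summed level of 10 Paneth markers was 12490 to 50740 TPM in libraries labelled TLR4ΔIEC and 74510 to 83550 TPM in those labelled WT, with 7 of the 9 tested lower at an unadjusted p under 0.05. The summed level of 10 ileum markers was 12960 to 39380 TPM in libraries labelled TLR4ΔIEC and 4707 to 9309 TPM in those labelled WT, and 9 of the 10 were higher at an unadjusted p under 0.05. Of 9 tested markers of the proximal small intestine, Lct and Gata4 fell and S100g rose at an adjusted p under 0.05. Of all tested genes, 0.119% were called at that threshold. At an unadjusted p under 0.05, 2 of the 9 were higher and 4 lower. The summed level of this list overlapped between groups, at 205.5 to 338.7 TPM under the label TLR4ΔIEC and 324.5 to 1069 TPM under WT. Lct, the lactase gene, was at 0.17, 0.87 and 0.52 TPM in libraries labelled TLR4ΔIEC and at 67.4, 60.1 and 21.5 TPM in those labelled WT (log2 fold change -4.93, limma adjusted p = 0.0316). S100g, which encodes a calcium-binding protein, was at 118, 97.4 and 121 TPM in libraries labelled TLR4ΔIEC and at 21.6, 9.47 and 10.98 TPM in those labelled WT (3.00, limma adjusted p = 0.035). Both calls were lost without TLR4ΔIEC replicate 2, TLR4ΔIEC replicate 3 or WT replicate 2 (adjusted p 0.0521 to 0.0928), and that of S100g also without WT replicate 3 (0.195). The part of these marker shifts in the mucin levels was not tested. Of 9 colon markers, 5 were tested and 3 of them were higher and 1 lower at an unadjusted p under 0.05. The lower one, Mptx1, was at 0.85, 1.09 and 2.33 TPM in libraries labelled TLR4ΔIEC and at 5.75, 4.63 and 8.06 TPM in those labelled WT (-1.58, limma adjusted p = 0.0926). Aqp8, a colonocyte water channel, was listed at 0 in all 6 libraries.

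The genes whose pattern over the 6 libraries was most like that of each tested member were found by Pearson's r of log2(TPM + 1), given as a description over libraries that share a scaling and 2 groups. For Muc3 they were Ms4a8a (r = 0.995), Ceacam18 (0.995) and Gmpr2 (0.994). Ceacam18, of the carcinoembryonic antigen family, was at 51.0, 88.1 and 53.6 TPM in libraries labelled TLR4ΔIEC and at 28.6, 23.7 and 26.0 TPM in those labelled WT, with the same high replicate 2 as Muc3. For Muc13 they were Ifnar1 (0.998), a subunit of the type I interferon receptor, Ift52 (0.996) and Pgam5 (0.996), each with its highest level in TLR4ΔIEC replicate 3. For Muc4 they were Cdk2ap1 (0.981), the glycolytic gene Pgk1 (0.98) and Cdc42se2 (0.979), whose groups overlap as those of Muc4 do. Muc3 and Muc13 themselves had r = 0.859 over the 6 libraries, and within the 3 libraries of a label their orders differed.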

How the data were processed

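Total RNA of 6 mouse small intestine samples was extracted with TRIzol and DNase-treated, per the labels' protocols. The tools fastp, HISAT and RSEM and the build GRCm38.p5 were used per the submitters' processing notes, which give no versions or settings here. The values deposited by the authors are TPM, per the file headers, with a column for each library. TPM sum to the same total in each library and keep no read totals, so depth is unknown, no counting interval is given, and the precision is that of the 3 samples per group. The authors' own group means were not used.

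Groups and replicate numbers came from the sample titles, and nothing in the labels names separate litters or batches. The test was limma 3.58.1 (R 4.3.3; lmFit, eBayes with an intensity trend, two-sided) on log2(TPM + 1) of the 13458 genes whose mean reached 1 TPM, with Benjamini-Hochberg adjustment over them and a threshold of 0.05. This scale understates the fold change of low genes. Differences are TLR4ΔIEC minus WT. Exact permutation tests of single values were run in scipy 1.17.1. The fit was also run on simulated data with independent noise in each gene. Those data held no differences between whole libraries, so they cannot vouch for the fit here. Libraries correlated at 0.939 to 0.977 within a label and 0.920 to 0.948 between labels, so none was a copy of another.

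The members and the gene lists were chosen with earlier results of these data known. Named genes are the members, Tlr4, from each context list the called genes filled up to 3 by mean TPM, and the 3 genes most correlated with each tested member, leaving out unnamed, predicted and receptor segment genes. Muc3a and genes said to be chosen after their values were seen are outside that rule, as are Mcam, Podxl, Emcn, Erbb2, Met, Il1b, Mptx1, Lct, S100g and the genes named only as listed at or near 0. Coordinates are from GENCODE M21 on GRCm38. Figures were drawn with matplotlib 3.10.9.

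As alternatives, the pseudocount was set to 0.1 or 5 TPM, the filter was dropped or raised to 5 TPM, and TPM were rescaled by median-of-ratios, quantiles, the pan-epithelial mean or without alpha-defensin, mitochondrially encoded and 18S-like genes (Rn18s, Cmss1 and Gphn). The fit was also run with no trend, with robust eBayes, with array weights, with a replicate block and without each library in turn.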

Additional observations from a re-analysis of the deposited data

How the results depend on the processing

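Over 18 alternatives, the log2 fold change of Muc3 ranged from 0.71 to 1.45 (adjusted p 0.0496 to 0.362), that of Muc13 from 0.22 to 0.87 (0.0529 to 0.487) and that of Muc4 from -0.23 to 0.43 (0.374 to 0.991). Of the members, Muc3 alone was called in any of them, with array weights (1.19, adjusted p = 0.0496, 1 member called). The count of 16 called genes over the whole table became 0 without the filter (3377 at an unadjusted p under 0.05), 7 at a mean of at least 5 TPM and 136 with array weights. Leaving out each library in turn gave 0 to 367 called genes, with 367 without TLR4ΔIEC replicate 1, 0 without TLR4ΔIEC replicate 2 (2651 at an unadjusted p under 0.05), 5 without TLR4ΔIEC replicate 3, 32 without WT replicate 1, 0 without WT replicate 2 (1681) and 3 without WT replicate 3. Gata4 alone of the called genes named here changed its adjusted p past the threshold with a pseudocount of 0.1 TPM (0.0832), at a mean of at least 5 TPM (0.0607) and without trend (0.0648), and Gata4, Lct and S100g did without the filter (0.143, 0.0978 and 0.0978) and with the replicate block (0.0601, 0.0579 and 0.0579). Calls were also gained. Without TLR4ΔIEC replicate 1, Muc2 (adjusted p = 0.0435), Cd164 (0.0355), Mep1a (0.0393), Mmp7 (0.00935), Ifngr2 (0.045), Ceacam18 (0.045) and B3gnt7 (0.0435) passed, and with array weights Muc2 (0.0406), Cd164 (0.0406), Ifngr1 (0.0496) and Ceacam18 (0.0409). The cause was not tested.

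With a replicate block, 1 gene was called, and Muc3 (adjusted p = 0.167) and Muc13 (0.19) did not pass. The numbers pair nothing that the labels name. Deviations from the group means correlated at -0.037, 0.035 and 0.118 for same-numbered libraries and at -0.154 to 0.106 for differently numbered ones. With 3 libraries per group, these values cannot show whether same-numbered libraries share a litter or a batch.

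With pan-epithelial scaling, the sign turned for Muc4 (-0.23), St3gal4 (-0.30), B4galnt1 (-0.57), Lgals4 (-0.24), Slc9a3r1 (-0.22), Ctnnb1 (-0.15), Jup (-0.13), Mep1b (-0.05), Tnfrsf1a (-0.23), Hnf4a (-0.27), Gmpr2 (-0.24), Cdk2ap1 (-0.43), Pgk1 (-0.28), Cdc42se2 (-0.35), Ifnar1 (-0.21), Ift52 (-0.27), Pgam5 (-0.12), Galnt1 (-0.05), Erbb2 (-0.01) and Met (-0.47). Without alpha-defensin, mitochondrially encoded and 18S-like genes it turned for Muc4 (-0.01), St3gal4 (-0.05), B4galnt1 (-0.32), Hnf4a (-0.02), Gmpr2 (-0.01), Cdk2ap1 (-0.18), Pgk1 (-0.03), Cdc42se2 (-0.10), Ift52 (-0.04) and Met (-0.25). With quantile normalization it turned for B4galnt1 (-0.30), Lgals2 (0.10), Cdk2ap1 (-0.18), Pgk1 (-0.01), Cdc42se2 (-0.10) and Met (-0.11). With median-of-ratios scaling it turned for B4galnt1 (-0.19), Cdk2ap1 (-0.06) and Met (-0.13), and with array weights for B4galnt1 (-0.10). With each library left out in turn, B4galnt1 ranged from -0.13 to 0.12, Lgals2 from -0.22 to 0.08, Met from -0.10 to 0.12 and Il1b from -0.55 to 0.26 (0.26 without TLR4ΔIEC replicate 2). None of these values passed the threshold.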

Other observations

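Absorptive enterocytes, the cells that carry most of the glycocalyx, were followed through 18 markers, of which none was called. Of the 18, 4 were higher and 3 lower in libraries labelled TLR4ΔIEC at an unadjusted p under 0.05 (all tested genes: 18.4% and 2.77%). Their median log2 fold change was 0.27, and -0.30 with pan-epithelial scaling. The summed level of these markers was 22030 to 26870 TPM in libraries labelled TLR4ΔIEC and 18620 to 21330 TPM in those labelled WT. Members of the list thus lay on both sides. Anpep, an aminopeptidase of the brush border, was at 5804, 7542 and 5888 TPM in libraries labelled TLR4ΔIEC and at 4087, 3367 and 3065 TPM in those labelled WT (log2 fold change 0.87, limma adjusted p = 0.123). Slc15a1, the peptide transporter, was at 109, 128 and 146 TPM in libraries labelled TLR4ΔIEC and at 188, 234 and 218 TPM in those labelled WT (-0.74, limma adjusted p = 0.099).

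Markers of cells outside the epithelium gave no call. Their counts at an unadjusted p under 0.05 stand beside 18.4% of all tested genes higher and 2.77% lower. The summed level of 9 B and plasma cell markers was 729.8 to 2302 TPM in libraries labelled TLR4ΔIEC and 4603 to 5521 TPM in those labelled WT, with 3 lower and 1 higher at an unadjusted p under 0.05. Igha, the heavy chain of the antibody that plasma cells send across the epithelium, was at 1420, 524 and 1762 TPM in libraries labelled TLR4ΔIEC and at 4856, 3948 and 3997 TPM in those labelled WT (-1.96, limma adjusted p = 0.101). T and NK cell markers summed to 89.9 to 165 TPM in libraries labelled TLR4ΔIEC and to 96.4 to 339 TPM in those labelled WT. For macrophages and dendritic cells the sums were 113 to 333 TPM in libraries labelled TLR4ΔIEC and 235 to 272 TPM in those labelled WT. For smooth muscle and stroma they were 189 to 628 TPM in libraries labelled TLR4ΔIEC and 349 to 753 TPM in those labelled WT. In each of these 3 lists the sums of the groups overlapped, and TLR4ΔIEC replicate 2, which had the highest Muc3 and the highest pan-epithelial mean, had the lowest sum. Log2 fold changes were negative for 10 of 10 T and NK cell, 9 of 10 macrophage and dendritic cell and 11 of 11 smooth muscle and stroma markers. Their medians were -0.61, -0.24 and -0.22 for these lists in turn, and -1.10, -0.76 and -0.79 with pan-epithelial scaling. Of these markers, 1, the T cell gene Cd7, was lower at an unadjusted p under 0.05. Anpep, Slc15a1 and Igha were picked with their values known, and any part of these cells in the mucin levels was not tested.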
